A study of Oryza sativa Japonica Group with 2 samples.

Results

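The regions described here are those that the NF-YC11 peak list places on the arms of rice (Oryza sativa Japonica Group) chromosomes 11 and 12. A region was taken when it lay on either chromosome with its summit more than 3.0 Mb from the centromere, set at 12 Mb on chromosome 11 and 11.9 Mb on chromosome 12, and summits that share a start and an end were merged. This gave 494 regions with 555 summits, 11.8% of the 4193 regions in the list. The list comes from chromatin immunoprecipitation and sequencing (ChIP-seq) of endosperm at 7 days after pollination from plants that carry NF-YC11 with a FLAG tag. It compares 1 library made with an anti-FLAG antibody (Sigma, F3165) and 1 library of input chromatin, for which the antibody is given as none. The design text names the tagged endosperm and the input as its control, and an untagged line was not analysed here. The promoter that drives the tagged gene and the number of independent lines are unknown here. Neither group was replicated, so no test between libraries was run, and no interval below covers variation between libraries. Intervals of counts, shares and density ratios cover counting error only, and those of medians cover the spread over regions. Intervals of pileup and fold cover the counting error of the pileup, with the background taken as exact.

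NF-Y is a transcription factor of 3 kinds of subunit, NF-YA, NF-YB and NF-YC. NF-YB and NF-YC pair through histone-fold domains, and the trimer with NF-YA recognises the CCAAT box, a common promoter element. Plants have many genes for each subunit, and some NF-YB and NF-YC members are expressed mainly in the cereal endosperm, the starch and protein store of the grain, where they take part in grain filling. The short arms of chromosomes 11 and 12 begin with a large segment that the chromosomes share as a duplication, and the copies are closely alike in sequence. Reads from such copies can be hard to place, and the treatment of reads that map to several places is unknown; its part in the results was not tested.

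Each region is described by 4 values of its highest-fold summit, all from the authors' deposited table or computed from it. Pileup is the number of ChIP fragments over the summit, and fold enrichment is the ratio of pileup to background with 1 added to each. The background is the level expected from the input on the ChIP scale, recovered from pileup and fold. It is not a direct count of input at the summit. The lowest value of the list, 4.85, was shared by 27 arm regions, where the input itself could be lower. Width is the length of the called region. The list was limited at a q of 0.05, and at the lowest background of 4.85 fragments nothing under a pileup of 14 and a fold of 2.56 was called. Positions are those of the peak list, in a genome build that no header or label names. Annotated genes and the sequences of the regions were not analysed here. Density counts regions per Mb, from coordinate 1 to the inner limit of a short arm and from the inner limit to the last region of a long arm. Assembly gaps were not taken out of these spans.

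The arms held 11.1 regions per Mb (95% Poisson interval 10.2 to 12.1), and chromosome 12 supplied more of them than chromosome 11. The arms of chromosome 12 held 271 regions over 21.5 Mb, or 12.6 per Mb (11.1 to 14.2). The arms of chromosome 11 held 223 over 22.9 Mb, or 9.72 per Mb (8.48 to 11.1). The ratio of chromosome 12 to chromosome 11 was 1.30 (exact 95% interval 1.08 to 1.56). This order turned when regions with a background above 40 fragments were left out, which removed 81 regions from chromosome 12 and 0 from chromosome 11. The ratio was then 0.909 (0.745 to 1.11), with 190 regions against 223, and its interval includes 1. Such high-background regions made up 16.4% of the arm regions, against 4.03% of the whole list. The 0 of 223 on the arms of chromosome 11 allows a share of up to 1.64%.

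The higher count on chromosome 12 was in its long arm, which stood at 1.53 times (1.23 to 1.92) the density of the long arm of chromosome 11, while the short arms stood at 0.938 (0.679 to 1.29). The long arm of chromosome 12 held 194 regions, 15.4 per Mb (13.3 to 17.7), and the short arm 77, 8.65 per Mb (6.83 to 10.8), a ratio of short to long of 0.562 (0.426 to 0.736). Without high-background regions the long arm held 120, 9.52 per Mb (7.89 to 11.4), the short arm 70, 7.87 per Mb (6.13 to 9.94), and the ratio of 0.826 (0.606 to 1.12) had an interval that includes 1. On chromosome 11 the long arm held 140 regions, 10.04 per Mb (8.44 to 11.8), and the short arm 83, 9.22 per Mb (7.35 to 11.4), a ratio of 0.919 (0.692 to 1.21). The arms of both chromosomes without high-background regions, at 9.29 per Mb (8.42 to 10.2), were sparser than the other 10 chromosomes at 11.2 per Mb (10.8 to 11.6), a ratio of 0.830 (0.748 to 0.919). With all regions the same ratio was 0.973 (0.884 to 1.07). The other chromosomes were counted over their whole length, centromeres included. Around the centromeres of chromosomes 11 and 12 themselves the list held 43 regions each in 6 Mb, or 7.17 per Mb (5.19 to 9.65). Of these, 7 on chromosome 11 and 5 on chromosome 12 were high-background regions.

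**Figure D1:**
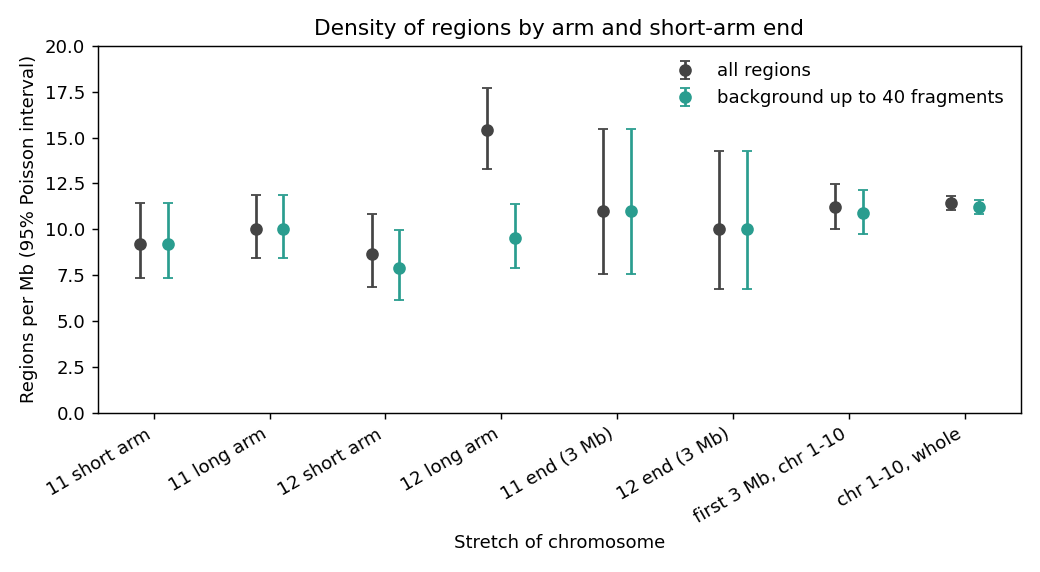
Regions per Mb (y axis) by stretch of chromosome (x axis) for all regions and for regions with a background up to 40 fragments; points are densities and bars are 95% Poisson intervals. The long arm of chromosome 12 falls from 15.4 to 9.52 per Mb without high-background regions, and the long and short arms of chromosome 11 do not move.

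The count per 1 Mb window varied along the arms, and was most uneven on the long arms. On the short arm of chromosome 11 the windows held 13, 10, 10, 14, 10, 9, 6, 7 and 4 regions from the chromosome's start towards the centromere. The window of the arm that lies nearest to the centromere, from 8 to 9 Mb, was its most thinly filled. The 8 full windows of the short arm of chromosome 12 held from 4 to 12 regions, with a median of 8.5, and the 13 of the long arm of chromosome 11 from 5 to 16, with a median of 11. The long arm of chromosome 12 ranged from 4 to 75 over 12 windows. The 75 belonged to the window from 20 to 21 Mb, and all but 2 of them were high-background regions. The median over the windows of that arm was 10.5. The variance of the counts was 1.11 and 0.714 times their mean on the short arms of chromosomes 11 and 12, 1.81 times on the long arm of chromosome 11, and 2.09 times on the long arm of chromosome 12 without high-background regions (23.6 times with them). Where this ratio is above 1, the Poisson and exact intervals given here can be too narrow.

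**Figure D2:**
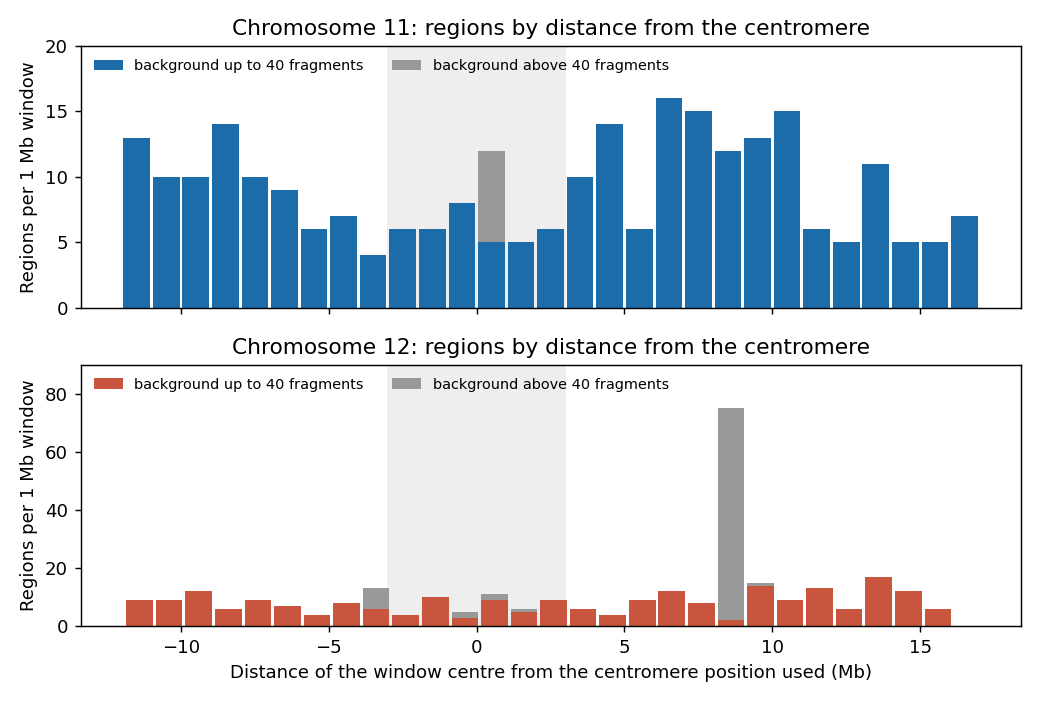
Regions per 1 Mb window (y axis, from 0 to 20 on chromosome 11 and from 0 to 90 on chromosome 12) against the distance of the window from the centromere position used, with the short arm at negative distances; bars are split by background, the last window of each chromosome is partial, and the shaded 3 Mb on each side are not part of the arms. Counts of the short arm of chromosome 11 run from 13 at its end to 4 beside the shaded stretch, and 1 window of chromosome 12 holds 75.

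The longest stretches without a region were of like length in the 4 arms. They measured 598 kb on the short arm of chromosome 11, from 6631055 to 7229017, and 616 kb on the short arm of chromosome 12, from 6007121 to 6623141. On the long arms they measured 634 kb on chromosome 11, from 28173023 to 28806877, near the end of the chromosome, and 582 kb on chromosome 12, from 16303866 to 16885917. The median distance between neighbouring regions was 90.7 kb and 78.3 kb on the short arms of chromosomes 11 and 12, and 56.6 kb and 15.5 kb on the long arms. Without high-background regions the long arm of chromosome 12 had a median of 59.4 kb, and its longest stretch became 695 kb, from 20194683 to 20889213. A region within 5 kb was found for 9.64% of regions on the short arm of chromosome 11, 16.4% on its long arm, 14.3% on the short arm of chromosome 12 and 43.3% on its long arm, against 14.1% over all chromosomes. The 23 such regions on the long arm of chromosome 11 include all 8 of a cluster described below. Without high-background regions the arms of chromosome 12 had 5.71% (1.58 to 13.99) on the short arm and 11.7% (6.53 to 18.8) on the long arm. The share over all chromosomes was not computed on these terms.

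The short-arm ends, the first 3 Mb of each chromosome, held similar numbers of regions. There were 33 on chromosome 11, 11 per Mb (7.57 to 15.4), and 30 on chromosome 12, 10 per Mb (6.75 to 14.3). The ratio of chromosome 12 to chromosome 11 was 0.909 (0.536 to 1.54), so either end could be the denser. By successive 1 Mb windows, chromosome 11 held 13, 10 and 10 regions and chromosome 12 held 9, 9 and 12. The list began at 134789 on chromosome 11 and at 50657 on chromosome 12. High-background regions were absent from both ends, 0 of 63, which allows a share of up to 5.69%.

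Taken as a group, the ends held 10.5 regions per Mb (8.07 to 13.4) and the rest of the short arms 8.15 (6.61 to 9.94), a ratio of 1.29 (0.923 to 1.79). Both chromosomes lay on the same side, at 1.32 (0.824 to 2.09) on chromosome 11 and 1.26 (0.767 to 2.03) on chromosome 12. Without high-background regions the pooled ratio was 1.39 (0.990 to 1.94). All of these intervals include 1, so a higher density of the ends was not shown at this number of regions. The first 3 Mb of the other 10 chromosomes held from 8 regions on chromosome 4 to 44 on chromosome 6, with a median of 37.5. Chromosome 11 ranked 7 and chromosome 12 shared rank 8 among the 12 chromosomes. Against these 336 regions, 11.2 per Mb (10.03 to 12.5), the ends of chromosomes 11 and 12 stood at a ratio of 0.938 (0.705 to 1.23).

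The intervals of the medians of pileup and width overlapped between the ends. For pileup, the median of the chromosome 11 end lay above the interval of the chromosome 12 end. On the chromosome 11 end pileups ran from 14 to 38 fragments with a median of 26 (95% interval of the median 22 to 27, over regions). On the chromosome 12 end they ran from 14 to 41 with a median of 22.5 (21 to 25). The ranges overlap almost entirely. Widths had medians of 176 bp (166 to 212) and 172 bp (167 to 227), and the widest regions measured 429 and 330 bp. Fold enrichment had medians of 2.74 (2.58 to 3.10) and 2.76 (2.56 to 2.90). The first 3 Mb of the other chromosomes had a median pileup of 23 (22 to 25), a median width of 197 bp (186 to 211) and a median fold of 2.69 (2.56 to 2.77), and all 3 intervals overlap those of both ends. In the rest of the short arms the median pileup was 24.5 (22 to 25) on chromosome 11 and 25 (22 to 28) on chromosome 12, and the median width 196 bp (170 to 232) and 204 bp (175 to 230).

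**Figure D3:**
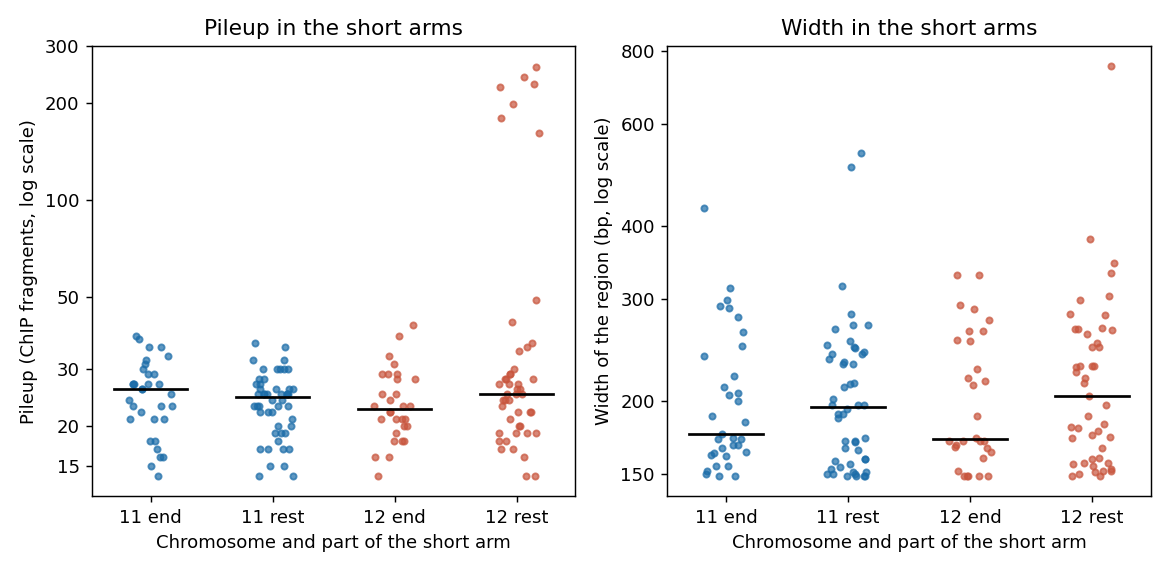
Pileup (left, ChIP fragments) and width (right, bp) of each region on the short arms, on log axes, for the first 3 Mb (end) and the remainder (rest) of chromosomes 11 and 12; points are regions, jittered sideways, and black lines are medians. Medians of pileup lie between 22.5 and 26 fragments, and the 7 points above 100 fragments in the rest of chromosome 12 are high-background regions.

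The strongest regions of the chromosome 11 end had moderate fold. The highest lay at chromosome 11, 1425888 to 1426059, with 25 fragments over 5.96 and a fold of 3.74 (2.47 to 5.45). The next were at 1559670 to 1559830 with 27 fragments over 6.70 (3.64-fold) and at 227373 to 227556 with 27 over 6.77 (3.60-fold). The region at 155969 to 156281 had 37 fragments over 9.68, a fold of 3.56 (2.53 to 4.87) and the lowest q of that end, a −log10 q of 7.23. The region at 2066194 to 2066482 held 2 summits and reached 3.52-fold. These folds cannot be put in order, since their intervals overlap. At the other extreme, the region at 2765057 to 2765261 was called at 1.92-fold with 31 fragments over 15.6. The highest pileup, 38 fragments at 323099 to 323250, stood over a background of 14.9 and gave a fold of 2.45.

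On the chromosome 12 end 1 region passed 4-fold. It lay at chromosome 12, 945157 to 945486, held 2 summits, and had 33 fragments over 6.43, a fold of 4.57 (3.19 to 6.37). It was also one of the widest at that end. The region nearest to the start of the chromosome, at 50657 to 50805, had 23 fragments over 5.33 (3.79-fold, 2.46 to 5.61). The region at 1257139 to 1257287 had 21 over the lowest background of 4.85 (3.76-fold). At 2829063 to 2829222 the pileup was the highest of that end, 41 fragments over 10.4, a fold of 3.68 (2.66 to 4.96). The fifth, at 1391078 to 1391245, had 28 over 6.99 (3.63-fold). Whether any of these lies in a stretch that matches a region of the chromosome 11 end was not analysed here.

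Among the 4 arms, regions of at least 4-fold were found mostly on the long arm of chromosome 11. A fold of at least 4 was reached by 25 arm regions, 5.06% (3.30 to 7.38, exact binomial), against 3.63% of the whole list. Of these, 19 lay on the long arm of chromosome 11, which is 13.6% of its 140 regions (8.37 to 20.4), whereas the other 10 chromosomes had 3.35% (2.79 to 3.99). The remaining 6 were 3 of 77 on the short arm of chromosome 12 and 3 of 194 on its long arm (3 of 120 without high-background regions, 2.50%, 0.519 to 7.13). The short arm of chromosome 11 had 0 of 83, for which the exact interval reaches 4.35% and includes the share of the whole list. The highest fold of that arm was 3.91 at 3597495 to 3597744, with 25 fragments over 5.66. Outside the arms, the 6 Mb around the centromere of chromosome 11 had 4 of 43, 9.30% (2.59 to 22.1), an interval that overlaps that of the long arm. The backgrounds of the 25 arm regions lay between 4.85 and 8.93 fragments and their pileups between 24 and 70. The share at a −log10 q of at least 5 was 22.9% (16.2 to 30.7) on the long arm of chromosome 11 and 16.0% (11.1 to 21.9) on that of chromosome 12, against 14.8% of the whole list, and these intervals overlap. Without high-background regions the long arm of chromosome 12 had 9.17% (4.67 to 15.8), that of chromosome 11 kept its value, and the other 10 chromosomes had 13.6% (12.5 to 14.7). The intervals treat regions as independent.

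A cluster on the long arm of chromosome 11 supplied 7 of its 19 regions of at least 4-fold. Between 18288273 and 18303645, a span of 15.4 kb, the list held 8 regions with 12 summits that covered 4016 bp. Pileups ran from 21 to 71 fragments while the background stayed between 4.85 and 8.93. Both strongest regions of the 4 arms were in it. The region at 18303020 to 18303645 had 70 fragments over 5.96 (10.2-fold, 7.99 to 12.9), and that at 18301304 to 18302866, the widest of the 4 arms at 1563 bp, had 61 over 5.52 at its highest-fold summit (9.50-fold, 7.30 to 12.2). The other regions of the cluster with a fold of at least 4 had 27 to 33 fragments. The nearest regions on either side lay 190 kb and 200 kb away. Without the cluster the long arm of chromosome 11 still had 12 of 132 regions at 4-fold or more, 9.09% (4.79 to 15.3), and 18.9% (12.6 to 26.7) at a −log10 q of at least 5. The first interval overlaps that of the long arm of chromosome 12 without high-background regions (0.519 to 7.13), but not with them (0.320 to 4.45). The second interval overlaps that of the long arm of chromosome 12 with and without high-background regions.

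The 12 regions outside the cluster were spread from 15.7 to 25.6 Mb. The region at chromosome 11, 19058370 to 19058727, had 31 fragments over 4.99 (5.34-fold, 3.68 to 7.51), and that at 24701274 to 24701431 had 29 over 4.85 (5.13-fold, 3.49 to 7.29). Near 20 Mb a pair of regions at 20013079 to 20013291 and 20069924 to 20070160 had 30 and 39 fragments and folds of 4.46 and 4.45. The highest pileup of the arm was not among them. It was 84 fragments at 16544167 to 16544346, where the background was 38.0 and the fold 2.18 (1.74 to 2.69), the only arm region with a background between 20 and 40.

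**Figure D4:**
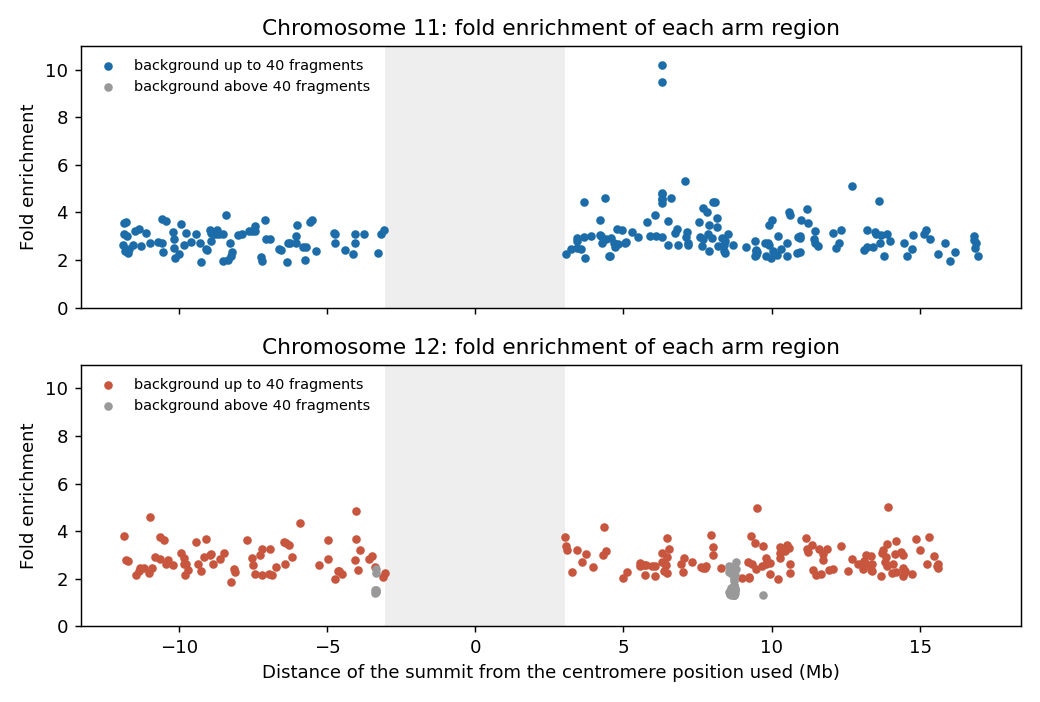
Fold enrichment (y axis) of each arm region against the distance of its summit from the centromere position used (x axis, short arm negative), by chromosome, with high-background regions in grey and the excluded 3 Mb shaded. The cluster at 10.2-fold and 9.50-fold and most points above 4 lie on the long arm of chromosome 11, and the grey points of chromosome 12 lie under 2.71.

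On chromosome 12, 3 regions on each arm reached 4-fold. On the short arm, the region at 7889374 to 7889522 had 28 fragments over 4.99 (4.84-fold, 3.27 to 6.92), followed by 945157 to 945486 described above and by 6006962 to 6007120, with 42 fragments over 8.93 (4.33-fold, 3.15 to 5.82). The last of these borders the longest empty stretch of the arm. On the long arm, 25805735 to 25805938 had 34 over 5.96 (5.03-fold, 3.53 to 6.97), 21390787 to 21390937 had 28 over 4.85 (4.95-fold, 3.35 to 7.09) and 16235371 to 16235529 had 31 over 6.70 (4.16-fold, 2.86 to 5.84). Apart from high-background regions, the widest on this chromosome was 439 bp, at 22169420 to 22169858, with 2 summits and a fold of 2.88. Its highest pileup was 49 fragments at 7874858 to 7875139 on the short arm, over 12.7 (3.66-fold). That region is the listed one just before 7889374 to 7889522.

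The high-background regions of the arms lay at 3 places on chromosome 12. Their median pileup was 214 fragments over a median background of 144, against 24 over 7.45 at the other 413 arm regions. Their median fold was 1.46 against 2.78, and their median width 322 against 189 bp. The locus from 20459998 to 20679758 on the long arm held 73 of the 81 regions, and 0 regions of lower background lay within it. Its regions were not evenly spread. The widest interruptions were 32.3 kb from 20579045 to 20611294, 17.2 kb from 20559923 to 20577119 and 14.2 kb from 20472628 to 20486788, while the median distance between neighbours was 0.932 kb. The median fold was higher in the outermost 20 kb at both limits of the locus, where the median background was lower, but the ranges overlapped. In the first 20 kb 5 summits had a median background of 93.8 and a median fold of 2.09, in the last 20 kb 5 summits had 87.1 and 2.17, and the 103 between had 147 and 1.40. Folds ran from 1.35 to 2.53 in the first section, from 1.40 to 2.71 in the last and from 1.27 to 2.49 between. The median pileups were 214, 195 and 211. The highest fold of the locus, 2.71, was at its last region, 20679597 to 20679758, with 185 fragments over 67.8. The highest pileup of all arm regions was also here, 285 fragments over 169 at 20635700 to 20636072, a fold of 1.68 (1.49 to 1.89), and the widest region of the chromosome 12 arms, 1203 bp with 4 summits, lay at 20638395 to 20639597.

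The smaller locus, on the short arm at 8531829 to 8545449, held 7 regions with 9 summits in 13.6 kb. The regions at its upper limit, 8544981 to 8545129 and 8545297 to 8545449, had backgrounds of 71.0 and 74.5 and folds of 2.25 and 2.39, and the others had backgrounds of 130 to 186 and folds of 1.38 to 1.52. The third place was a single region at 21600113 to 21600301, with 239 fragments over 182 (1.31-fold). High-background regions also held most of the arm regions with several summits, 31 of 48. Several summits were found in 9.72% of arm regions, against 5.32% of the list, and in 4.12% (2.42 to 6.51) of the 413 others.

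**Figure D5:**
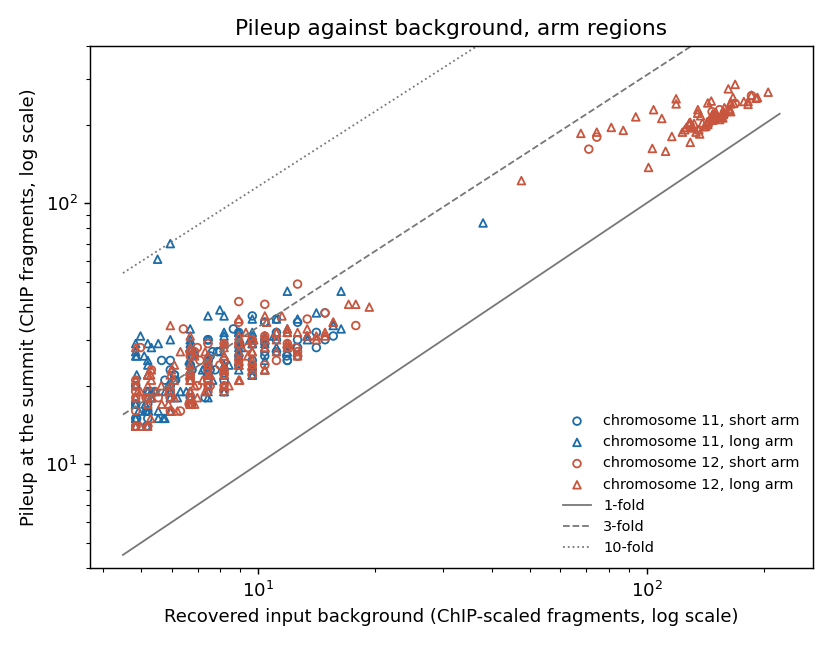
Pileup at the summit (y axis, ChIP fragments) against the recovered input background (x axis, ChIP-scaled fragments), both on log axes, for each arm region; colours mark chromosomes, symbols mark arms, and lines mark 1-fold, 3-fold and 10-fold. The high-background regions of chromosome 12 lie between the 1-fold and 3-fold lines at up to 285 fragments, and the regions at 10.2-fold and 9.50-fold on chromosome 11 lie at backgrounds of 5.96 and 5.52.

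Fold fell short of 3 at most regions with a background above 10. Its median was 3.25 in the 37 regions with a background of 5 or less, 2.90 from 5 to 10 (289), 2.32 from 10 to 20 (86), 2.39 from 40 to 100 (8) and 1.45 above 100 (73). The lowest fold in these ranges was 2.50, 2.15, 1.85, 2.17 and 1.29. A lower fold at higher background is partly set by construction, since background divides the fold and the q limit admits lower folds there. A fold of at least 3 was found at 31.4% of arm regions (27.3 to 35.7), against 30.5% of the list, and at 37.5% (32.8 to 42.4) without high-background regions. By chromosome it was 43.0% (36.5 to 49.8) on the arms of chromosome 11 and 31.1% (24.6 to 38.2) on those of chromosome 12 without high-background regions. The other 10 chromosomes had 31.1% (29.5 to 32.6) on the same terms. Within chromosome 11 the share was 45.8% (34.8 to 57.1) on the short arm and 41.4% (33.2 to 50.1) on the long arm. Median fold was 2.81 and 2.91 on the short and long arm of chromosome 11, and 2.76 and 2.67 on those of chromosome 12 without high-background regions.

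Pileup and width of the ordinary regions differed little between arms. The median pileup was 25 (23 to 26) and 24.5 (23 to 27) on the short and long arm of chromosome 11, and 23 (21 to 25) and 23 (22 to 26) on those of chromosome 12 without high-background regions. The median widths were 190 and 195 bp on chromosome 11, and 186 bp on either arm of chromosome 12. All arms reached down to the smallest pileup of 14 and the smallest width of 149 bp. In the 446 arm regions with a single summit, the summit lay a median of 20.5 bp from the middle of the region (quartiles 6 and 50.5 bp). A q above 0.01, close to the limit of the list, was given for 21.5% of all arm regions, against 26.3% of the list. Without high-background regions the share was 24.9% (20.8 to 29.4) on the arms and 27.3% (25.9 to 28.8) on the other 10 chromosomes.

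On chromosome 11 the last region inside the short arm, at 8934727 to 8934938, had 24 fragments and 3.25-fold. The first one outside, at 9000446 to 9000646, had 26 fragments and 2.09-fold, with its summit 0.519 kb beyond the limit. On chromosome 12 the first region of the long arm, at 14942105 to 14942354, had 28 fragments and 3.77-fold, and the last one left out before it, at 14867231 to 14867410, had 25 and 4.44-fold.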

How the data were processed

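One ChIP library was compared with 1 input library by the submitters, whose processing notes name BWA and MACS2 without versions; the build, mapping filters and duplicate handling are unknown here. The labels' protocols give 3 g of tissue, 1% formaldehyde for 30 min and chromatin sheared to 200 to 500 bp. The deposited pileup is a signal, an unscaled number of fragments. The deposited fold enrichment is a ratio of ChIP to local input, per the file headers. The −log10 of a p-value and of a q-value were identified in the deposited table by column order, since their header cells were damaged, and the q-values equal those of the deposited summit list at all 4445 summits.

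Background was recovered as (pileup + 1) / fold − 1. A Poisson tail with this background matched every listed −log10 p to within 0.00032. Total reads per library are unknown. Summits sharing a region were merged, and the region took its highest-fold summit. Counts have exact Poisson intervals, shares exact binomial ones, density ratios exact conditional binomial ones and medians binomial order-statistic ones, all at 95%. Fold intervals set the exact Poisson limits of the pileup over a fixed background, so counting error of the input is left out. The limit given for a count of 0 is the upper end of the exact binomial interval. Regions of 1 library are not replicates, so no test was run. Named regions are the 5 of highest fold per arm (background up to 40) and per short-arm end, the widest, the region of highest pileup, and high-background summits joined over gaps up to 50 kb. Other named regions were added after their values were seen: those beside the limit, the single high-background region, the weakest region and the tallest of an end, further regions of at least 4-fold, edges of the loci, and the widest and tallest without high background. All regions, limits and stretches were chosen with earlier results of these data known. The density-ratio and median intervals were tested on simulated data with independent counts or values. The other intervals were not tested, and the simulation did not include the uneven counts seen on the long arms. Python 3.11.15, pandas 2.3.3 and scipy 1.17.1 were used.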

Additional observations from a re-analysis of the deposited data

How the results depend on the processing

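Removing the high-background locus of the chromosome 12 long arm and removing the cluster on the chromosome 11 long arm were alternatives chosen after seeing the data. The density ratio of chromosome 12 to chromosome 11 arms turned from 1.30 to 0.909 without high-background regions and to 0.947 without that locus. The short-to-long ratio of chromosome 12 moved from 0.562 to 0.826 and 0.902 in these settings. With regions of −log10 q ≥ 5, of which the arms held 88 in place of 494, the first ratio was 1.07, the short-to-long ratio of chromosome 11 was 0.581 (0.273 to 1.16) and the ratio of the ends to the first 3 Mb of the other chromosomes was 1.31 (0.608 to 2.59). The other density ratios stayed within their intervals, also with limits 2 or 4 Mb from the centromere, ends of 2 or 4 Mb, and spans from first to last region.

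Without high-background regions, without the locus, with −log10 q ≥ 2 and with −log10 q ≥ 5, the median pileup of 26 became 24, 24, 28 and 35, the median fold of 2.64 became 2.78, 2.74, 2.85 and 3.57, and the share at 3-fold or more, 31.4%, became 37.5%, 36.8%, 39.9% and 71.6%. The median width of 199 bp became 186.5 with −log10 q ≥ 5 and 212 with summits as units. The share with high background, 16.4%, became 1.90% without the locus, 20.1% and 26.1% under the q limits and 22.2% with summits as units. The share with −log10 q ≥ 5, 17.8%, became 22.7% among regions with −log10 q ≥ 2. Limits on q remove weak regions by construction. Taking the highest-pileup summit, or leaving out the cluster, moved none of these overall values beyond their intervals.

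The alternatives on CCAAT boxes and on matches between the ends were not run, as no genome was used. No paired analysis was possible because each group is a single library.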
